A study of Mus musculus with 9 samples.

Results

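The aminoacyl-tRNA synthetases are the enzymes that attach each amino acid to its matching tRNA. The family described here was taken by gene symbol and consists of 20 genes for enzymes of the cytosol and 16 genes for enzymes of the mitochondria, which were 36 of the 35771 genes in the count table. All 36 were found, and all 36 passed the filter on low counts. Their RNA was measured by sequencing in mouse embryonic stem cells (ESCs) of mixed background that were homozygous for the iMOS T1-Myc allele and carried RERT. The iMOS allele yields a mosaic of cells with different numbers of extra copies of Myc, a transcription factor that promotes growth, marked by the fluorescent protein EYFP, and RERT makes the recombination depend on 4-hydroxytamoxifen. Cultures were treated with 20 µM of that drug for 24 h, and 24 h after its removal the cells were sorted by EYFP into those with 2 extra copies of Myc and those without extra copies. Cells of the same line from uninduced cultures were sorted as the control.

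Each of the 3 groups had 3 libraries, and the allele and RERT were shared by all 9. The group without extra copies therefore came from the same kind of treated, mosaic culture as the cells with 2 extra copies. The uninduced group differed from it at least in drug exposure, on which the recombination depends, and in its neighbours. The sample records nevertheless repeat the drug text for the uninduced samples too. The labels name a single allele and do not say how many clones of the line were used. The submitters call the 3 samples of a group biological replicas without saying whether they were separate cultures. The p-values therefore set each group difference against the spread between these samples, whatever their origin.

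The cytosolic synthetases charge the tRNAs used by cytosolic ribosomes, and several of them sit together in a multisynthetase complex held by scaffold proteins. The mitochondrial enzymes, named with a final 2, are encoded in the nucleus, imported, and charge the tRNAs of the mitochondrial genome. Gars and Kars each supply both compartments, and Eprs joins the enzymes for glutamate and proline in a single protein. Many cytosolic synthetase genes are known targets of ATF4, the transcription factor of the integrated stress response and of the response to amino acid shortage, which also drives amino acid synthesis and uptake. Myc, for its part, binds the E-box CACGTG.

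Promoter windows were found by symbol for 27 of the 36 genes, 13 cytosolic and 14 mitochondrial (RefSeq, GRCm38.p6, 250 bases before to 50 after the start). Cars, Hars, Lars, Nars, Rars, Vars, Wars, Hars2 and Pars2 had no entry under these symbols, and other names were not searched. The windows were searched on both strands for the E-box CACGTG and for TGATGNAA, the core letters of the element to which ATF4 and its partners bind, and no match of these motifs overlapped the other kind in the family. TGATGNAA was present in a window of 5 of the 13 cytosolic genes (Aars, Gars, Iars, Tars and Yars) and of 0 of the 14 mitochondrial genes, against 4.51% of all 27025 genes with a window and 3.97% of all 32851 windows of that length. CACGTG was present in 4 of the cytosolic genes (Aars, Farsb, Iars and Tars) and in 1 of the mitochondrial genes (Ears2), against 8.09% of all genes and 7.15% of all windows. The 5 windows with TGATGNAA are shown from 150 bases before to 30 after the start. The RNA of these 5 genes was lower without extra copies than in uninduced cells, as was that of Eprs, Mars1 and Sars, whose windows do not hold these letters, while Dars, Farsa, Farsb, Kars and Qars, also without them, were not lower by the test. Cars, Lars, Nars, Vars and Wars, which had no window, were lower too, while Hars and Rars, also without a window, were not. Over the whole family 13 of the 20 cytosolic genes were lower, against 6.39% of all genes. A link between these letters and the change was not tested. The 5 windows are written on the strand of the gene, 5′ to 3′, with both motifs in capitals (TTGCATCA and TTTCATCA are TGATGNAA read on the other strand).
Aars (chr8:111033692-111033871, plus strand): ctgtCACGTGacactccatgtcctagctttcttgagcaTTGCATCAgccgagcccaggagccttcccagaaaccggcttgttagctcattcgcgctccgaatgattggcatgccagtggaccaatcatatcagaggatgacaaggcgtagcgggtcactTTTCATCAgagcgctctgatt
Gars (chr6:55037851-55038030, plus strand): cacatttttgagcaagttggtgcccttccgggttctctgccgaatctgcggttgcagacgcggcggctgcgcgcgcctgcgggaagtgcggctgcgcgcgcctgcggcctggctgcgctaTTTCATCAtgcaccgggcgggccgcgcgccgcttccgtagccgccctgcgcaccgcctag
Iars (chr13:49681980-49682159, plus strand): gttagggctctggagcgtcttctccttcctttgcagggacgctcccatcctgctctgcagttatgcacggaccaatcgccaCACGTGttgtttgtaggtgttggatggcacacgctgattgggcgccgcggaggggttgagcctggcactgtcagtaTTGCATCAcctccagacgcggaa
Tars (chr15:11399629-11399808, minus strand): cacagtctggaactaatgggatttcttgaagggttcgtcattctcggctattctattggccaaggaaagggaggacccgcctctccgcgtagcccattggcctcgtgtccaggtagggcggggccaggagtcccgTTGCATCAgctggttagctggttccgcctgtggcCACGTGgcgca
Yars (chr4:129189753-129189932, plus strand): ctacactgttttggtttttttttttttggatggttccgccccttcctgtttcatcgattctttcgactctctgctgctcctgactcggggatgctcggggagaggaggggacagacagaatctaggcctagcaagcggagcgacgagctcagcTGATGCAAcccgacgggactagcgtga
The Aars stretch held TGATGNAA at 2 places, at offsets -112 and 10 from the start. In the other 4 genes it lay within 30 bases of the start, at -30 in Gars, 8 in Iars, -15 in Tars and 4 in Yars. A match is a run of letters and not a measured binding site, and a window without a match says only that these letters are not in it.

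Totals ran from 4165286 to 8872303 rounded expected counts per library, and 13424 genes were tested. Levels are CPM, the counts scaled to a common library total with TMM factors, given as mean ± SD over 3 libraries. Myc itself was at 13.3 CPM in the uninduced cells, 31.6 in those without extra copies and 142 with 2 extra copies, on average. It was highest in the group labelled with 2 extra copies, and the group labelled without extra copies lay above uninduced cells by 1.24 on the log2 scale (SE 0.096, adjusted p = 1.1e-11). All 9 ESC marker genes had counts in every library, summing to 3336 to 3692 CPM. The summed level of 6 fibroblast markers was 73.8 to 80.3 CPM in the uninduced libraries, 190 to 212 CPM without extra copies and 114 to 123 CPM with 2 extra copies, all 6 having counts in every library. That of 6 extraembryonic endoderm markers, 4 of which had counts in every library, was 125 to 131, 182 to 197 and 114 to 120 CPM in the same order. Sparc, which fibroblasts express too, made up most of that sum, at 113 ± 2.81, 175 ± 6.36 and 106 ± 3.83 CPM, while Gata4 was at 4.14, 3.87 and 3.14 CPM. Replicate 1 of the group with 2 extra copies stood apart from the other libraries of its group, with a chi-square per degree of freedom of 2.61 and 2.97 against them.

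As a family, the cytosolic enzymes were abundant and the mitochondrial enzymes were not. Per kilobase of transcript, the uninduced level of the cytosolic genes ran from 59.8 CPM for Hars, the histidine enzyme, to 252 CPM for Gars, the glycine enzyme. Nars, which charges asparagine, followed Gars at 248 CPM per kilobase. The mitochondrial genes other than Lars2 ran from 2.02 CPM per kilobase for Mars2 to 43.6 for Tars2, all below the lowest cytosolic gene. The place of Mars2 depends on its long annotated transcript of 11294 bases: before division by length it was at 22.8 CPM, above Wars2 at 10.5 CPM. Lars2, the mitochondrial leucine enzyme, was at 277 CPM per kilobase in these libraries.

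Summed over the 20 cytosolic genes, the level was 7003 ± 40.1 CPM in uninduced cells, 6016 ± 55.0 CPM without extra copies and 6531 ± 174 CPM with 2 extra copies. The ranges of the 3 groups did not overlap. In bulk RNA, less RNA of these genes per cell and fewer cells that express them cannot be told apart. The 16 mitochondrial genes summed to 1676 ± 128, 875 ± 71.2 and 1013 ± 285 CPM in the same order, but 64.2% of the uninduced sum was Lars2. Without Lars2, which was left out after its values were seen, the mitochondrial sums were 598 ± 3.79, 583 ± 6.54 and 631 ± 15.8 CPM. The ranges of these sums over the other 15 genes did not overlap between the groups either, but the group with 2 extra copies was now the highest and the groups lay closer together.

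**Figure D1:**
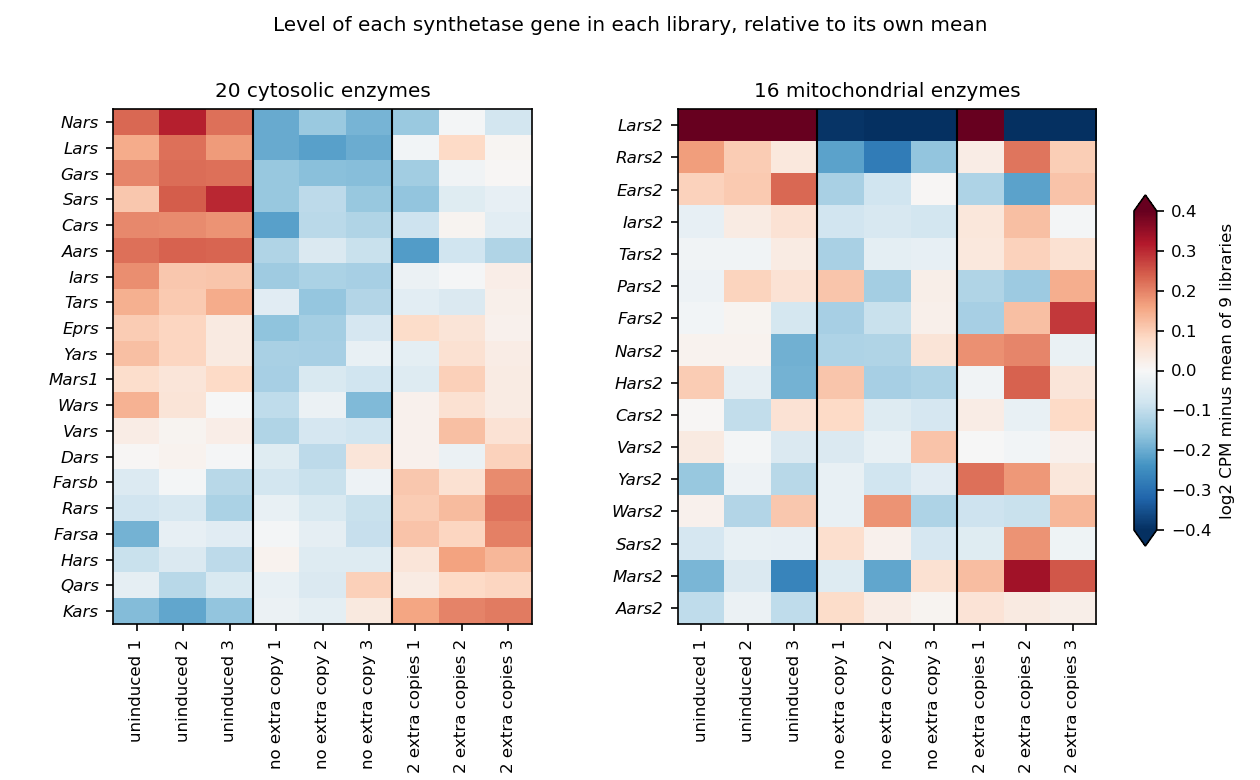
Level of each of the 20 cytosolic (left) and 16 mitochondrial (right) synthetase genes in each of the 9 libraries, as log2 CPM minus the mean of the gene over the 9 libraries (red above, blue below; colours are capped at 0.4 either way, which Lars2 exceeds). Genes are sorted by their change without extra copies against uninduced; the upper cytosolic genes are red in the 3 uninduced columns, and the lowest ones, from Farsb to Kars, are red or pale red in the 3 columns with 2 extra copies.

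First, cells without extra copies were set against uninduced cells. Of the 20 cytosolic enzymes, 13 fell, 1 rose and 6 did not pass the test (edgeR's quasi-likelihood test, Benjamini-Hochberg adjusted p below 0.05). Over all genes tested, 6.39% fell and 7.10% rose. The median log2 change of the cytosolic genes was -0.17, against 0.0022 over all genes. In 13 cytosolic genes every library without extra copies was below every uninduced library, as was the case for 15.4% of all genes. Among the 1612 genes within the range of mean level of the cytosolic enzymes, which were called more often, 15.4% fell and 11.2% rose.

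Nars was at 669, 709 and 665 CPM in the uninduced libraries, at 497, 516 and 502 CPM without extra copies, and at 515, 568 and 543 CPM with 2 extra copies. Both induced groups lay below all uninduced libraries, and they overlapped each other. Against uninduced cells Nars fell by 0.43 on the log2 scale (SE 0.038, adjusted p = 2.21e-10) in cells without extra copies, the largest fall among the cytosolic enzymes. Lars, which charges leucine and belongs to the multisynthetase complex, was at 512, 539 and 520 CPM in the uninduced libraries and at 402, 397 and 403 CPM without extra copies. With 2 extra copies it was at 458, 489 and 464 CPM, between the other groups and overlapping neither. It fell by 0.39 (SE 0.036, adjusted p = 1.19e-09) without extra copies.

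Gars was at 593, 605 and 603 CPM in the uninduced libraries, at 467, 462 and 460 CPM without extra copies and at 470, 513 and 520 CPM with 2 extra copies. The 3 groups were again separate, with the uninduced libraries highest, and the fall without extra copies was 0.38 (SE 0.037, adjusted p = 3.37e-09). Sars, the serine enzyme, was at 454, 499 and 520 CPM in the uninduced libraries, at 379, 392 and 380 CPM without extra copies and at 378, 408 and 412 CPM with 2 extra copies. Its induced groups overlapped each other and lay below the uninduced libraries, and it fell by 0.35 (SE 0.043, adjusted p = 7.11e-07). Cars, Aars, Iars, Tars, Eprs and Yars, for cysteine, alanine, isoleucine, threonine, glutamate with proline, and tyrosine, fell by 0.33 to 0.18 (largest adjusted p 0.00223). Mars1, Wars and Vars, for methionine, tryptophan and valine, fell by 0.16, 0.15 and 0.11 (adjusted p 0.0073, 0.0271 and 0.0432). Those 3 calls did not hold in every fit with a library left out. The call for Vars was lost without any 1 of the 6 libraries of these groups, at adjusted p of 0.0765 to 0.175. The call for Wars was lost without uninduced replicate 1 (0.181) or 2 (0.067) and without replicate 1 (0.0887) or 3 (0.136) of the group without extra copies, and that for Mars1 without replicate 1 of that group (0.0616).

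Kars, the lysine enzyme, was the exception that rose. It was at 307, 300 and 311 CPM in the uninduced libraries, at 341, 337 and 356 CPM without extra copies and at 387, 398 and 400 CPM with 2 extra copies. The groups did not overlap, and the uninduced libraries were the lowest. The rise without extra copies was 0.17 (SE 0.038, adjusted p = 0.00175). Dars, Farsa, Farsb, Hars, Qars and Rars did not pass, with log2 changes from -0.05 to 0.07.

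Of the 16 mitochondrial enzymes, 1 fell, 0 rose and 15 did not pass in this comparison, with a median log2 change of -0.02. Rars2, the mitochondrial arginine enzyme, was at 51.7, 49.4 and 47.4 CPM in the uninduced libraries, at 39.6, 37.9 and 41.2 CPM without extra copies and at 47.0, 53.5 and 49.3 CPM with 2 extra copies. The libraries without extra copies were the lowest, and the other groups overlapped. It fell by 0.34 without extra copies (SE 0.073, adjusted p = 0.00137). The other genes apart from Lars2 had log2 changes from -0.22 for Ears2 to 0.11 for Aars2. Among these, Tars2, for threonine, was at 105 ± 1.94 CPM in uninduced cells, 99.7 ± 3.77 CPM without extra copies and 109 ± 2.02 CPM with 2 extra copies, and Wars2, for tryptophan, at 10.5 ± 0.833, 10.5 ± 1.19 and 10.3 ± 0.957 CPM. The precision was lower for these rarer RNAs. The median standard error of a log2 change was 0.087 over the mitochondrial genes other than Lars2 and 0.041 over the cytosolic genes. Among 7178 genes within the range of mean level of the mitochondrial enzymes other than Lars2, 6.26% fell and 7.97% rose. A total of 1811 genes of all (13.5%) were called in this comparison, and 1177 without replicate 2 of the group without extra copies.

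Lars2, singled out after its values were seen, had the largest standard error of the 36 genes in each comparison. It was at 948, 1081 and 1203 CPM in the uninduced libraries, at 350, 220 and 306 CPM without extra copies and at 724, 176 and 245 CPM with 2 extra copies. All induced libraries were below all uninduced ones, and replicate 1 with 2 extra copies lay far above the other libraries of its group. The log2 change was -1.90 without extra copies (SE 0.53, 3.73-fold lower, adjusted p = 0.0718) and -1.50 with 2 extra copies (SE 0.52, 2.83-fold lower, adjusted p = 0.0864), so neither passed. Without replicate 1 of the group with 2 extra copies, these changes were -1.91 (adjusted p = 0.00361) and -2.33 (adjusted p = 0.00198), both past the threshold. The change between the induced groups was 0.40 with that library and -0.42 without it, with adjusted p of 0.705 and 0.40. No cause of this spread was tested.

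**Figure D2:**
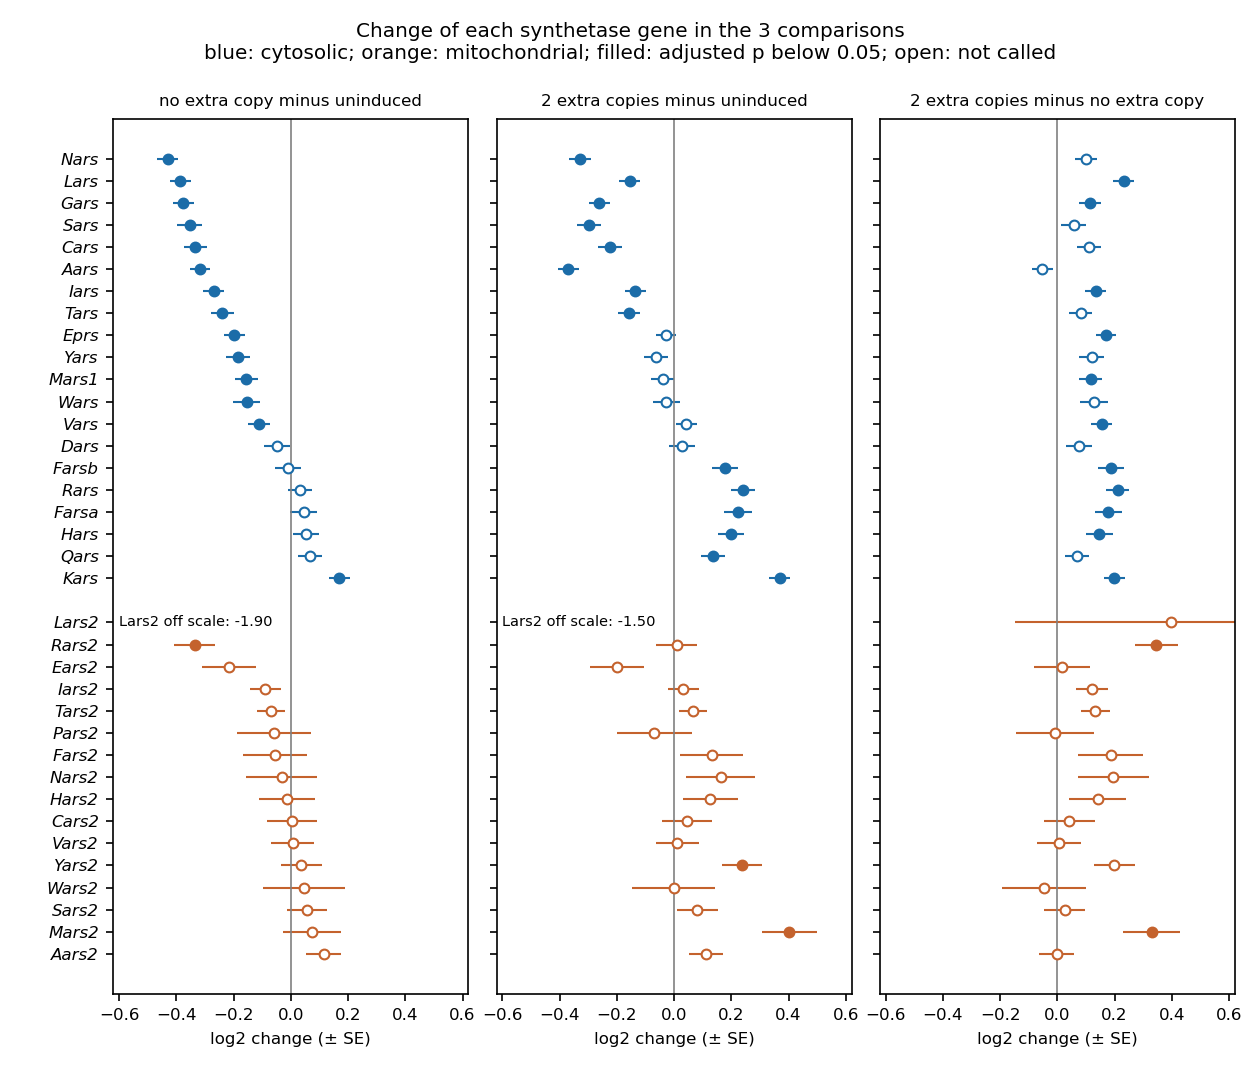
Log2 change (± SE) of each synthetase gene in the 3 comparisons, cytosolic genes in blue and mitochondrial genes in orange; filled points had an adjusted p below 0.05 and open points did not. In the left panel 13 cytosolic genes lie below 0 as filled points and Kars lies above; in the right panel all filled points lie above 0. Lars2 is off the scale in the first 2 panels, and its bar runs past the edge of the third.

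Next, cells with 2 extra copies were set against the same uninduced libraries, so that this comparison and the previous one share their controls. Here the cytosolic family split: 8 enzymes fell, 6 rose and 6 did not pass, with a median log2 change of -0.03 against -0.01 over all genes. Over all genes tested, 12.1% fell and 12.8% rose (25.0% in all), and among genes in the range of level of the cytosolic enzymes 15.8% fell and 29.7% rose. The 8 that fell were below all uninduced libraries in every library, and the 6 that rose were above them in every library, as held for 19.4% and 19.1% of all genes. With the trend over transcript length removed, 2268 genes of all were higher and 1218 lower, against 1721 and 1629 without that step, and 7 cytosolic enzymes were higher and 7 lower. Vars was added there (adjusted p = 0.0411) and the fall of Iars lost (0.114).

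Aars, the alanine enzyme, fell the most. It was at 735, 743 and 742 CPM in the uninduced libraries, at 581, 607 and 594 CPM without extra copies and at 541, 597 and 580 CPM with 2 extra copies. Its induced groups overlapped and both lay below the uninduced libraries. It fell by 0.37 with 2 extra copies (SE 0.036, adjusted p = 1.99e-09) and by 0.32 without extra copies (SE 0.036, adjusted p = 6.39e-08). Nars fell by 0.33 (SE 0.038, adjusted p = 4.62e-08), Sars by 0.30 (adjusted p = 6.9e-06) and Gars by 0.26 (adjusted p = 2.16e-06). Cars fell by 0.22, and Tars, Lars and Iars by 0.16, 0.16 and 0.14 (largest adjusted p 0.00475). Eprs, Yars, Mars1, Wars, Vars and Dars did not pass, with log2 changes from -0.06 to 0.04.

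Kars rose the most among the cytosolic enzymes, by 0.37 (SE 0.037, adjusted p = 4.34e-09). Rars, the arginine enzyme of the multisynthetase complex, was at 185, 187 and 179 CPM in the uninduced libraries, at 191, 187 and 184 CPM without extra copies and at 210, 213 and 227 CPM with 2 extra copies. Only the libraries with 2 extra copies stood apart, and it rose by 0.24 against uninduced cells (adjusted p = 4.14e-05). The same layout was seen in the subunits of the phenylalanine enzyme. Farsb was at 161, 167 and 155 CPM in the uninduced libraries, at 159, 157 and 165 CPM without extra copies and at 181, 175 and 191 CPM with 2 extra copies, a rise of 0.18 against uninduced cells (adjusted p = 0.00278), and Farsa rose by 0.22 (adjusted p = 0.000597). Hars rose by 0.20 (adjusted p = 0.00158) and Qars, for glutamine, by 0.14 (adjusted p = 0.0151). The call for Qars was lost without uninduced replicate 2 (0.0964) or without replicate 2 (0.0523) or 3 (0.055) of the group with 2 extra copies.

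Of the mitochondrial enzymes, 2 rose, 0 fell and 14 did not pass, with a median of 0.05. Genes in their range of level rose in 12.4% and fell in 13.8% of cases. Mars2, the mitochondrial methionine enzyme, was at 22.5, 24.6 and 21.2 CPM in the uninduced libraries, at 24.6, 22.1 and 26.7 CPM without extra copies and at 27.9, 32.3 and 30.4 CPM with 2 extra copies. Yars2, for tyrosine, was at 42.5, 46.5 and 43.7 CPM, at 46.2, 44.7 and 45.7 CPM, and at 55.0, 53.3 and 48.7 CPM in the same order. In both genes the libraries with 2 extra copies were above all others. Mars2 rose by 0.40 against uninduced cells (SE 0.097, adjusted p = 0.00211) and Yars2 by 0.24 (SE 0.070, adjusted p = 0.0123). Without uninduced replicate 1 the call for Yars2 was lost (0.0651), and without replicate 3 of the group with 2 extra copies Ears2, for glutamate, was called lower (0.037).

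**Figure D3:**
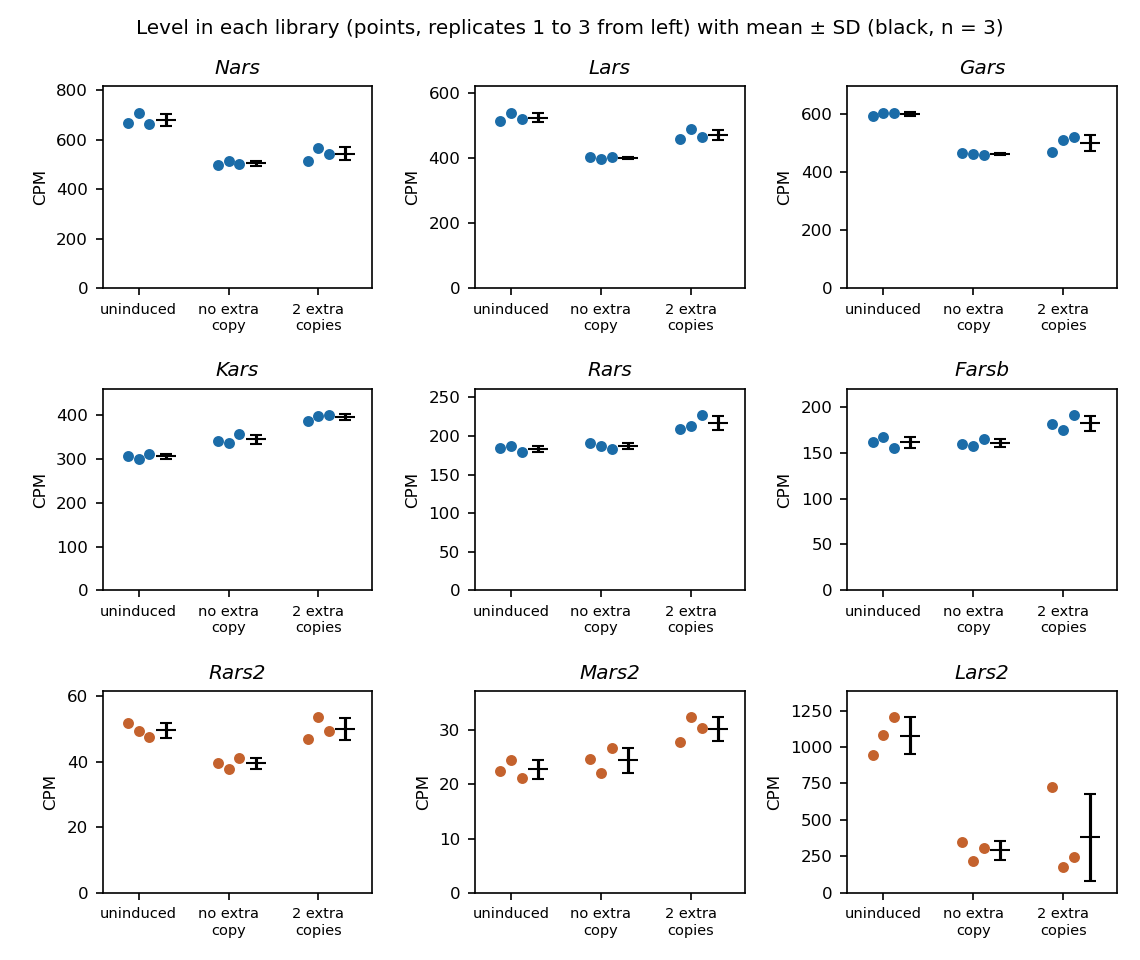
CPM of 9 synthetase genes in each library (points, replicates 1 to 3 from left in each group) with mean ± SD over 3 libraries (black); each axis starts at 0. Nars, Lars and Gars are highest in the uninduced libraries, Kars, Rars, Farsb and Mars2 are highest with 2 extra copies, Rars2 is lowest without extra copies, and the induced libraries of Lars2 run from 176 to 724 CPM.

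The populations sorted from induced cultures were compared with each other last. They share the drug exposure and the mosaic culture, and each was also used in a comparison above. With 2 extra copies, 11 of the 20 cytosolic enzymes were higher than without extra copies, 0 were lower and 9 did not pass; over all genes tested, 8.30% were higher and 7.70% lower. The median log2 difference was 0.12, against -0.01 over all genes. In 13 cytosolic genes every library with 2 extra copies was above every library without extra copies, as for 15.4% of all genes. Among genes in the range of level of the cytosolic enzymes, 25.7% were higher and 8.68% lower. The log2 differences were small, from -0.05 for Aars to 0.23 for Lars.

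The count depended on the scaling. With library totals alone, 7 cytosolic enzymes were higher and 0 lower, and over all genes 774 were higher and 1360 lower, against 1114 and 1034 with TMM factors. With the trend over transcript length removed, 16 cytosolic enzymes were higher and 0 lower, and over all genes 1875 were higher and 788 lower. Without replicate 2 of the group without extra copies, 1397 genes of all were called, against 2148 with all libraries.

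Lars showed the largest difference among the cytosolic enzymes, 0.23 (SE 0.037, adjusted p = 2.91e-05). It was followed by Rars at 0.21 (SE 0.042, adjusted p = 0.000517), Kars at 0.20 (SE 0.038, adjusted p = 0.000269) and Farsb at 0.19 (SE 0.045, adjusted p = 0.00347). The levels behind these differences were not alike. In Lars the libraries with 2 extra copies lay between the other groups, in Kars the uninduced libraries were the lowest, and in Rars and Farsb the uninduced libraries overlapped those without extra copies. Farsa, Eprs, Vars and Iars were higher by 0.18, 0.17, 0.15 and 0.13 (largest adjusted p 0.00917). Aars, Cars, Dars, Nars, Qars, Sars, Tars, Wars and Yars did not pass, with log2 differences from -0.05 to 0.13.

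Eprs was at 602, 595 and 575 CPM in the uninduced libraries, at 502, 510 and 535 CPM without extra copies and at 590, 581 and 567 CPM with 2 extra copies. Only the libraries without extra copies stood apart. Iars was at 501, 474 and 476 CPM, at 398, 403 and 401 CPM, and at 433, 439 and 448 CPM in the same order, with the 3 groups separate. Vars was at 362, 357 and 361 CPM, at 326, 338 and 336 CPM, and at 359, 385 and 369 CPM, and Mars1 at 317, 312 and 320 CPM, at 276, 290 and 286 CPM, and at 292, 323 and 309 CPM. In Vars and Mars1 the libraries with 2 extra copies overlapped the uninduced ones and lay above those without extra copies. Eprs, Iars, Vars and Mars1, like Lars and Gars, were called lower without extra copies than in uninduced cells and higher with 2 extra copies than with none, in comparisons that share the libraries without extra copies.

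Mars1, Gars and Hars were called narrowly, at differences of 0.12, 0.11 and 0.15 (adjusted p 0.0467, 0.0327 and 0.0305). The call for Gars was lost without replicate 2 or 3 of the group with 2 extra copies or without any 1 of the 3 libraries without extra copies (0.0666 to 0.137). That for Hars was lost without replicate 2 or 3 of either induced group (0.0779 to 0.14), and that for Mars1 without any library but replicate 1 of the group with 2 extra copies (0.0506 to 0.253). Without replicate 3 of the group with 2 extra copies, 7 cytosolic enzymes were higher, with Farsa lost as well (0.0607). Without replicate 1 of that group 15 were higher, which added Nars (0.00209), Yars (0.00513), Cars (0.0126) and Wars (0.0358). Yars was also called without replicate 3 (0.0323), and Wars without replicate 2 (0.0455), of the group without extra copies.

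Rars2 and Mars2 were the 2 mitochondrial enzymes that were higher with 2 extra copies than with none, 0 were lower and 14 did not pass. Rars2 differed by 0.35 (SE 0.075, adjusted p = 0.00131) and Mars2 by 0.33 (SE 0.099, adjusted p = 0.0193). The median over the 16 mitochondrial genes was 0.13, and among genes in their range of level 6.70% were higher and 8.69% lower. The cytosolic and mitochondrial medians were thus close in this comparison, 0.12 and 0.13, and the number of calls differed along with the standard errors. These had medians of 0.041 over the cytosolic genes and 0.089 over the mitochondrial genes other than Lars2. The call for Mars2 was lost without replicate 2 (0.0869) or 3 (0.0501) of the group with 2 extra copies and without replicate 2 of the group without extra copies (0.182). With the trend over transcript length removed, 5 mitochondrial enzymes were higher and 0 lower, with Iars2 (0.0100), Tars2 (0.0181) and Yars2 (0.0273) added. Yars2 was also called without replicate 3 of the group with 2 extra copies (0.0251) and Tars2 without replicate 1 of it (0.0307).

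Pairs of enzymes for the same amino acid set the compartments side by side. There were 17 such pairs, in which the 2 subunit genes of the cytosolic phenylalanine enzyme were each paired with Fars2 and Eprs with both Ears2 and Pars2. Without extra copies against uninduced cells, the change of the cytosolic gene was below that of its mitochondrial partner in 11 pairs and above it in 6, with a median difference of -0.17. Aars changed by -0.32 and Aars2 by 0.11, Nars by -0.43 and Nars2 by -0.03, and Sars by -0.35 and Sars2 by 0.06. Arginine went the other way, with 0.03 for Rars and -0.34 for Rars2. So did leucine, with the largest difference in that direction, at -0.39 for Lars and -1.90 (SE 0.53) for Lars2. With 2 extra copies against uninduced cells, the cytosolic change was above the mitochondrial one in 8 pairs and below it in 9, with a median difference of -0.03. Between the induced groups the cytosolic change was above the mitochondrial one in 8 pairs and below it in 9, with a median difference of -0.00015. The differences between partners were not tested.

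The cytosolic enzymes were also divided by role. This division, like the other gene lists, was chosen with earlier results of these data known, so the split between its parts is description only. The 12 that are often described as ATF4 targets (Aars, Cars, Eprs, Gars, Iars, Lars, Mars1, Nars, Sars, Tars, Wars and Yars) all fell without extra copies against uninduced cells, at a median of -0.29, against 6.39% of all genes and 15.4% of the genes in the range of level of the cytosolic enzymes. With 2 extra copies against uninduced cells, 8 of the 12 fell, 0 rose and 4 did not pass (median -0.16), against 12.1% of all genes and 15.8% of those of like level that fell. Between the induced groups 5 of the 12 were higher with 2 extra copies and 0 lower (median 0.12), against 8.30% of all genes and 25.7% of those of like level that were higher. The other 8 (Dars, Farsa, Farsb, Hars, Kars, Qars, Rars and Vars) gave 1 rise and 1 fall without extra copies (median 0.04). With 2 extra copies 6 of these 8 rose and 0 fell against uninduced cells (median 0.19), where 12.8% of all genes and 29.7% of those of like level rose, and 6 were higher and 0 lower than without extra copies (median 0.17). The first 2 comparisons share the uninduced libraries.

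ATF4 targets outside the family are known to serve amino acid synthesis, uptake and the stress response. The list of 22 such genes also holds Atf4 itself. Against uninduced cells Atf4 fell by 0.35 without extra copies (adjusted p = 8.47e-07) and by 0.28 with 2 extra copies (adjusted p = 1.85e-05). Of the 22 genes, 20 fell and 0 rose without extra copies against uninduced cells (median -0.45), where 6.39% of all genes fell. With 2 extra copies against uninduced cells 20 fell and 0 rose (median -0.35), where 12.1% of all genes fell. Between the induced groups 8 were higher with 2 extra copies and 1 lower (median 0.08), against 8.30% and 7.70% of all genes. Asns, asparagine synthetase, was at 386, 400 and 399 CPM in the uninduced libraries, at 235, 247 and 245 CPM without extra copies and at 250, 280 and 268 CPM with 2 extra copies. Psat1, of serine synthesis, was at 647, 648 and 649 CPM, at 415, 432 and 424 CPM, and at 490, 513 and 514 CPM in the same order. Like Nars and Gars, both were highest in all uninduced libraries. Asns fell by 0.70 without extra copies (SE 0.041, adjusted p = 1.73e-14) and Psat1 by 0.61 (SE 0.035, adjusted p = 1.53e-14). Of the 4 kinases that start the integrated stress response, Eif2ak1 rose by 0.20 without extra copies (adjusted p = 0.031) and by 0.21 with 2 extra copies (adjusted p = 0.0127) against uninduced cells, and the other 3 did not pass.

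**Figure D4:**
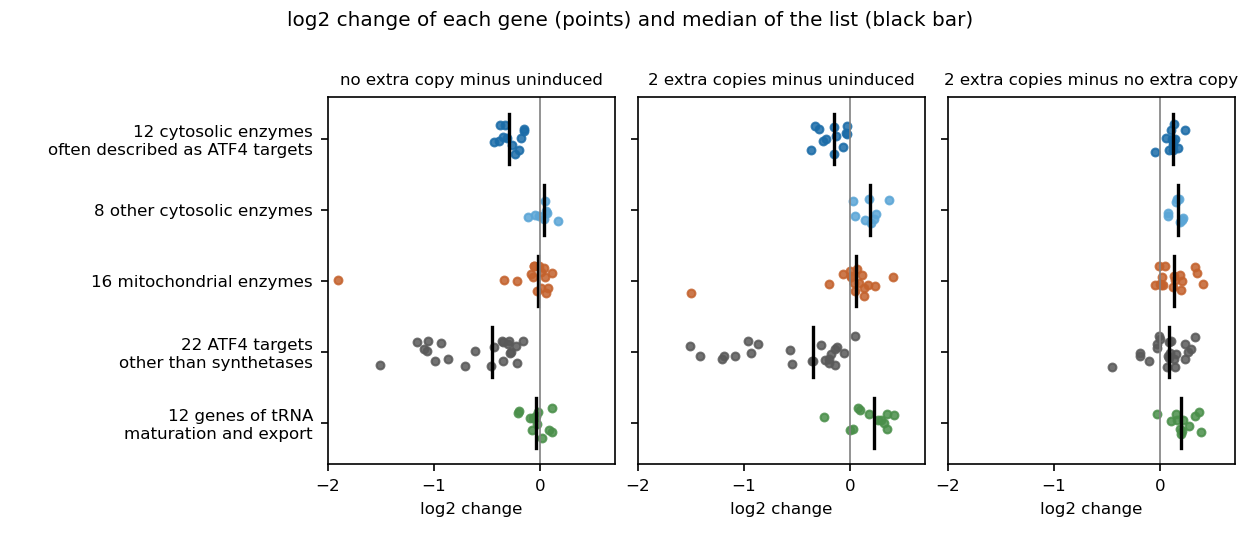
Log2 change of each gene (points, spread vertically for visibility) and median (black bar) of 5 gene lists in the 3 comparisons. The 12 cytosolic enzymes often described as ATF4 targets and the 22 other ATF4 targets (with Atf4 itself) lie mostly to the left of 0 in the first 2 panels. Their medians are -0.29 and -0.45 in the first panel, and the 8 other cytosolic enzymes have medians of 0.04, 0.19 and 0.17.

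Membership of the multisynthetase complex crossed this division. Of its 8 enzymes (Dars, Eprs, Iars, Kars, Lars, Mars1, Qars and Rars), 4 fell and 1 rose without extra copies against uninduced cells, 2 fell and 3 rose with 2 extra copies, and 6 were higher and 0 lower with 2 extra copies than with none. Of the 12 cytosolic enzymes outside the complex, 9 fell and 0 rose, 6 fell and 3 rose, and 5 were higher and 0 lower in the same order. Among genes in the range of level of the cytosolic enzymes, 15.4% fell and 11.2% rose, 15.8% fell and 29.7% rose, and 25.7% were higher and 8.68% lower in that order, so that 3 rises among 8 or among 12 enzymes were near that share. The shares over all genes were 6.39% and 7.10%, 12.1% and 12.8%, and 8.30% and 7.70%. Among the 3 scaffold genes Eef1e1 was higher with 2 extra copies than with none by 0.32 (SE 0.052, adjusted p = 4.44e-05) and than in uninduced cells by 0.27 (adjusted p = 0.000132). Aimp1 was higher by 0.19 than without extra copies (adjusted p = 0.0127), and Aimp2 did not pass in any comparison.

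The tRNAs that these enzymes charge are first trimmed, modified and exported from the nucleus. Of 12 genes for those steps, 8 were higher with 2 extra copies than with none and 0 lower (median 0.20), against 8.30% of all genes that were higher. Against uninduced cells 6 rose and 0 fell with 2 extra copies (median 0.22), where 12.8% of all genes rose. Without extra copies against uninduced cells 1 fell and 0 rose (median -0.04), where 6.39% of all genes fell and 7.10% rose. Nsun2, which methylates cytosines of tRNAs, was at 301, 320 and 308 CPM in the uninduced libraries, at 323, 326 and 339 CPM without extra copies and at 391, 429 and 417 CPM with 2 extra copies. The libraries with 2 extra copies were the highest, by 0.33 over those without extra copies (SE 0.040, adjusted p = 5.24e-07). Trnt1, which adds the terminal CCA, differed by 0.38 (adjusted p = 4.02e-06) and Pop1, of RNase P, by 0.37 (adjusted p = 0.000283). Xpot, the export carrier of tRNAs, fell by 0.20 without extra copies against uninduced cells (adjusted p = 0.000282) and was higher by 0.19 with 2 extra copies than with none (adjusted p = 0.000462).

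Some markers of other cell types differed between these groups. Of the fibroblast markers Col1a1, Col1a2, Acta2 and Tagln rose without extra copies against uninduced cells, Thy1 did not pass (-0.26) and Postn was not tested; of the endoderm markers Sparc rose, Gata4 (-0.13) and Dab2 (0.14) did not pass, and Gata6, Sox17 and Foxa2 were not tested. The fibroblast marker sum was lowest in the uninduced libraries and highest without extra copies. The summed level of the 20 cytosolic synthetases was highest in uninduced cells and lowest without extra copies. The part of the fibroblast markers in the synthetase results was not tested. The range of the ESC marker sum was 3474 to 3518 CPM in uninduced cells, 3618 to 3692 without extra copies and 3336 to 3519 with 2 extra copies. Single ESC markers moved within it. Of the 9, 5 rose and 2 fell without extra copies against uninduced cells, where 7.10% of all genes rose and 6.39% fell. With 2 extra copies 2 rose and 2 fell against uninduced cells (12.8% and 12.1% of all genes), and 5 were lower and 0 higher than without extra copies (7.70% and 8.30%). Some values are uncertain because transcripts overlap on opposite strands and how the counting used the strand is not stated in the labels. Hars and Hars2 overlap over 7.97% and 4.56% of their exonic bases, Mars1 and the stress gene Ddit3 over 1.99% of Mars1, Cars2 and Naxd over 5.83% of Cars2, and Iars2 and Rab3gap2 over 22.9% of Iars2. Iars2 and Rab3gap2 also match at 100% identity over 37.2% of the Iars2 transcript, and Rab3gap2 had a mean of 533 counts. Smaller overlaps, of 0.50% to 2.00% of the exonic bases, joined Yars with C77080, Ears2 with Ubfd1 and Fars2 with Lyrm4. Exosc6 shares 23.1% of the transcript of Aars, and Iars has a pseudogene, Gm4849, that matches it at 94.7% identity over 49.9% of its transcript (neither was analysed here).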

How the data were processed

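RNA of 9 libraries (3 per group) was read as single-end 75 bp reads, per the labels. The authors deposited expected counts per gene from RSEM 1.17, per the submitters' processing notes and the file headers. RSEM splits a read among the genes that it matches, so near-identical genes can share counts. The notes name GRCm38, and also cutadapt, Picard and limma with no role; the aligner and its settings are not given in the sources used here. Members, gene lists and alternatives were chosen with earlier results of these data known.

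Counts were rounded, and edgeR's filterByExpr left 13424 genes with 99.8% of the counts. Unless another fit or a left-out library is named, adjusted p-values come from the quasi-likelihood test of edgeR 4.0.16 in R 4.3.3 (robust, TMM factors, all 9 libraries, 1 coefficient per group), with Benjamini-Hochberg adjustment over the 13424 genes and a threshold of 0.05. CPM and log2 changes were computed here. The common biological coefficient of variation was 0.0394. Of the 35771 identifiers, 35432 had a gene model in GENCODE M21, which gave names and lengths. In data simulated for 2 extra copies against none, with 13230 genes tested and 50 genes changed at each size, the test called 42% of the genes changed 1.2-fold and 100% of those changed 2-fold. The changed genes were drawn from all levels above a low floor. These shares therefore do not give the sensitivity for the cytosolic or the mitochondrial enzymes.

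Values per library are given for the up to 4 cytosolic and 4 mitochondrial members with the largest called changes in each comparison and for members called in opposite directions; of other lists, genes with the smallest p are named. Alternatives were RLE, upper-quartile and no scaling factors, DESeq2 1.42.0, limma-voom 3.58.1, 2 other filters, 2 groups in the fit, a replicate block, removal of the trend over transcript length, and each library left out. Titles number the libraries of each group 1 to 3; deviations of same-numbered libraries correlated at -0.081 to 0.081, so the numbers were not taken as pairs.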

Additional observations from a re-analysis of the deposited data

How the results depend on the processing

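Across 19 alternatives, 32 of the 44 calls of synthetase genes held under every alternative and 12 were lost under at least 1; 12 values that had not passed did so under at least 1, and the direction of no called value was reversed. With library totals alone, 7 cytosolic enzymes were higher with 2 extra copies than with none. DESeq2 called 1075 genes of all between the induced groups, 1889 with 2 extra copies against uninduced cells and 806 without extra copies against uninduced cells, against 2148, 3350 and 1811. With DESeq2, 1 mitochondrial enzyme was higher with 2 extra copies than with none, 1 rose and 1 fell with 2 extra copies against uninduced cells, and 2 fell without extra copies. Limma-voom gave 1 and 2 mitochondrial falls against uninduced cells in the cells with 2 extra copies and in those without, and a fit with only the 2 groups gave 2 without extra copies. The added fall was that of Lars2. With the length trend removed, 5 mitochondrial enzymes were higher with 2 extra copies than with none. The looser motif CACGNG was present in a window of 9 of 13 cytosolic and 7 of 14 mitochondrial genes, and of 30.3% of all genes. The cause of these changes was not tested.

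With each library left out in turn, the genes called of all ranged from 1397 to 2564 between the induced groups, from 2453 to 3719 with 2 extra copies against uninduced cells and from 1177 to 2201 without extra copies against uninduced cells. Cytosolic enzymes higher with 2 extra copies than with none ranged from 7 to 15, and mitochondrial ones from 1 to 3. Against uninduced cells, 5 to 6 cytosolic enzymes rose and 8 fell with 2 extra copies, 1 to 2 mitochondrial ones rose and 0 to 1 fell, and without extra copies 10 to 13 cytosolic and 1 to 2 mitochondrial enzymes fell.

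The replicate numbers are shared by the groups without a stated pairing, and no correlation of same-numbered libraries was over 0.1; not every library correlated best with those of its own number. With the number as a replicate block, the genes called of all were 2233, 3440 and 1933 in the same order, and 14 cytosolic enzymes were higher with 2 extra copies than with none; 6 rose and 8 fell with 2 extra copies, and 1 rose and 13 fell without extra copies, against uninduced cells. The median standard error on the log2 scale was 0.087 to 0.089 for the mitochondrial genes other than Lars2. It was 0.040 to 0.041 for the cytosolic genes, so small changes of the mitochondrial genes were less detectable at this depth.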

Other observations

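Synthetases fall into 2 structural classes with unrelated catalytic folds. Of the 9 class I cytosolic enzymes, 7 fell without extra copies against uninduced cells and 0 rose, and 5 were higher with 2 extra copies than with none and 0 lower. Of the 10 class II cytosolic enzymes, 5 fell and 1 rose, and 5 were higher and 0 lower in the same comparisons. Over all genes 6.39% fell and 7.10% rose, and 8.30% were higher; among genes in the range of level of the cytosolic enzymes 15.4% fell and 11.2% rose, and 25.7% were higher.

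Dtd1 and Aarsd1, which belong to a list of 8 genes for editing and related proteins, were the 2 of that list called between the induced groups, both higher with 2 extra copies, as were 8.30% of all genes. Dtd1, which removes D-amino acids from tRNAs, was higher with 2 extra copies than with none by 0.45 on the log2 scale (SE 0.099, adjusted p = 0.00158) and than in uninduced cells by 0.58 (adjusted p = 3.56e-05). Aarsd1, which clears tRNAs charged with the wrong amino acid in the place of alanine, was higher by 0.25 than without extra copies (adjusted p = 0.0188).

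Of 10 mitochondrial translation factors, 3 were higher with 2 extra copies than with none and 0 lower, against 8.30% of all genes that were higher. Guf1 was higher by 0.41 (adjusted p = 0.000177), and Tufm and Gfm1, the elongation factors, by 0.23 and 0.22 (adjusted p 0.00101 and 0.00221). Against uninduced cells Tufm, Gfm1 and Tsfm rose with 2 extra copies, by 0.27, 0.24 and 0.20 (largest adjusted p 0.0393), and Guf1 fell by 0.41 without extra copies (adjusted p = 0.000106). The 4 genes of the amidotransferase that makes mitochondrial glutamine tRNA and of the formylation of methionine tRNA (Gatb, Gatc, Qrsl1 and Mtfmt) did not pass the test in any comparison.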
